A study of Mus musculus with 6 samples.

Results

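The genes that give endothelial cells their identity were followed in mouse ventricle: 44 genes, chosen by name from a list of endothelial surface proteins, transcription factors and markers of capillaries, arteries, veins and lymphatic vessels. All 44 were found among the 18193 genes measured, through 83 probe sets, and where a gene had several, the one brightest on average over the 6 arrays stands for it. Of the arrays, 3 came from caAkt mice, which carry a transgene that expresses an activated Akt in the heart, and 3 from wild-type mice. Animals of both genotypes were 8 weeks old and the tissue was ventricular. The promoter of the transgene, the strain and whether each array came from a separate heart are not given in the sources used here. The p-values therefore reflect how far these arrays differ from each other, and that spread may be technical. All values are log2 values made with RMA, a method that removes background, gives all arrays one distribution of values and reduces the probes of each set to 1 value. A difference of 1 on this scale is therefore a change of 2-fold relative to the bulk of genes.

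Endothelial cells line every vessel. In the heart most of them form the capillary bed, which passes water, oxygen and fatty acids to the muscle. ETS factors such as Erg and Fli1 maintain their identity, as do the Sox factors Sox7, Sox17 and Sox18, which are related to each other. Notch signalling favours the arterial fate. Veins, where leukocytes leave the blood, use adhesion molecules that are induced by inflammatory signals. Lymphatic vessels drain the tissue and depend on Prox1 and the receptor encoded by Flt4.

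Akt1, a gene of the Akt kinase family, read 15.16, 15.10 and 15.08 on the caAkt arrays and 9.79, 9.79 and 10.18 on the wild-type arrays at its brightest probe set. With plain probe sets only, those whose names carry no suffix for probes shared between transcripts, it gave a log2 fold change of -0.29. Arrays of 1 genotype correlated at 0.995 to 0.997 over all probe sets and arrays of different genotypes at 0.983 to 0.985. The defining endothelial genes were well detected in both genotypes. Pecam1, which encodes the junction protein CD31, averaged 10.12 ± 0.13 in caAkt hearts and 10.25 ± 0.10 in wild-type hearts (SD, n = 3 each), and Cdh5, which encodes VE-cadherin, averaged 9.90 ± 0.06 in caAkt hearts and 10.06 ± 0.10 in wild-type hearts. For comparison, 3 Y-linked genes (Uty, Kdm5d, Eif2s3y) lay between 3.87 and 4.57 on arrays with Xist at 11.36 to 11.47, the pattern of female animals. Sele, at 4.65 ± 0.09 in caAkt hearts and 4.42 ± 0.07 in wild-type hearts, was the one member near that level.

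Of the 44 genes, 24 were called at an adjusted p under 0.05 (limma, Benjamini-Hochberg over all genes), beside 28.5% of all genes. In caAkt hearts 9 members were higher (20.5%) and 15 lower (34.1%). Over all genes, 16.1% were higher and 12.4% lower, so the share of members that rose lay near the background and the share that fell above it. The median log2 fold change of the members was -0.16, beside -0.04 over all genes. The 3 caAkt values lay entirely above the wild-type values for 9 members and entirely below for 20, against 21.4% and 21.1% of all genes, or 42.4% in either direction. The changes reached 2-fold in 4 members, with Plvap and Pdpn higher and Sox7 and Aqp7 lower. Of the 11 capillary and arterial genes 7 fell and 0 rose. Of the 7 venous and leukocyte adhesion genes 5 rose and 0 fell, the rises being those of Plvap and of 4 adhesion genes (Icam1, Vcam1, Selp and Sele), while Nr2f2 and Vwf were not called. Of the 4 lymphatic genes 3 rose and 0 fell. In whole tissue, fewer cells of a type and less RNA per cell cannot be told apart.

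**Figure D1:**
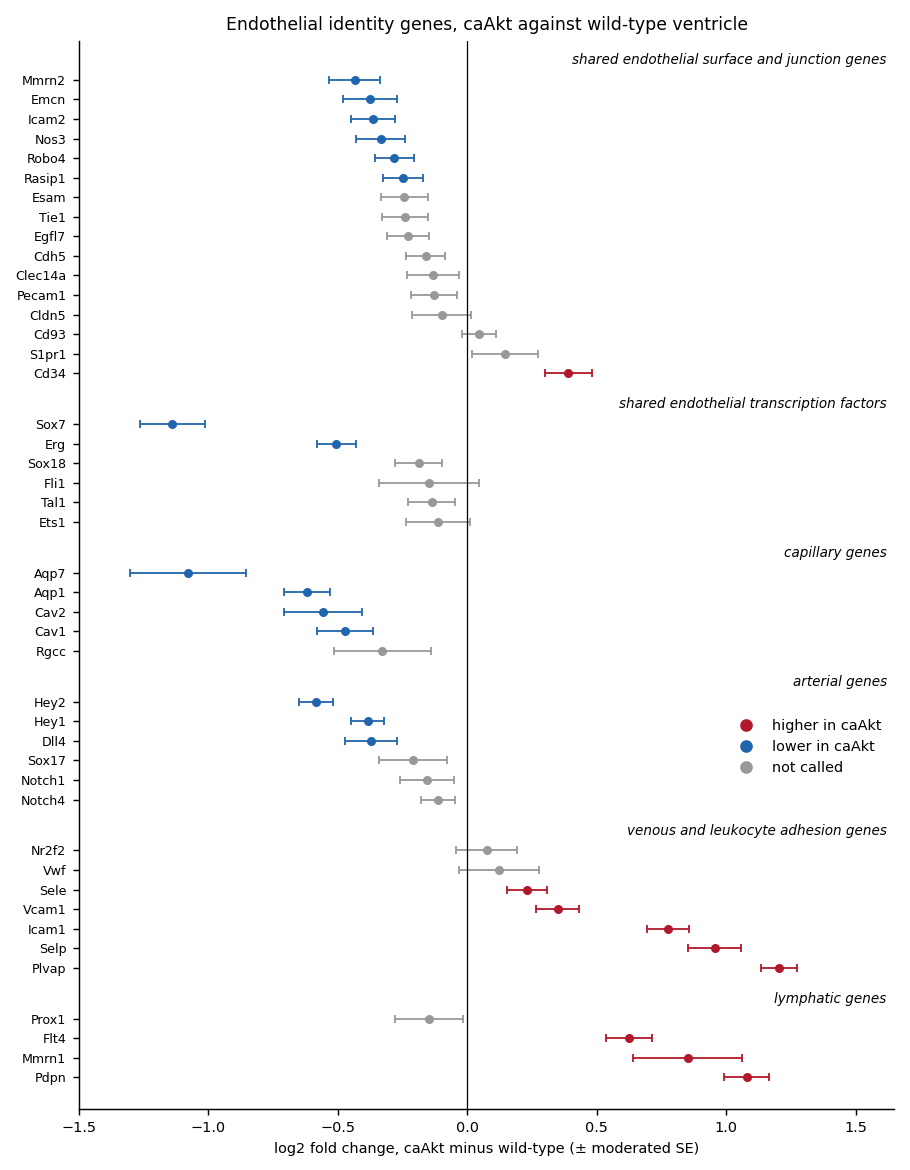
Log2 fold change (caAkt minus wild-type, x axis) of each of the 44 genes with its moderated standard error, grouped by role; red and blue points passed the adjusted p threshold. The capillary and arterial genes all lie left of 0 and the venous and adhesion genes all lie right of it, while most shared genes lie slightly left.

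Calls did not all rest on the same footing. Of the 9 rises, 6 were called in each of the 6 fits that leave out 1 array (Cd34, Icam1, Selp, Plvap, Flt4 and Pdpn), and of the 15 falls, 9 were (Icam2, Mmrn2, Erg, Sox7, Aqp1, Aqp7, Cav1, Hey1 and Hey2). The number of members that fell was 9 without caAkt replicate 1, 10 without wild-type replicate 2, and 11 to 15 without any other single array. The number that rose was 7 or 8.

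Of the 22 genes listed as shared endothelial genes, not all of which mark every vessel, 8 fell, 1 rose and 13 did not pass the test. Among the 16 surface, junction and signalling genes of these, 6 fell, 1 rose and 9 did not pass the test, with a median log2 fold change of -0.23. The largest fall was that of Mmrn2, which encodes a matrix protein of the endothelial surface, at 9.88, 9.59 and 9.54 in caAkt hearts and 10.20, 10.11 and 10.01 in wild-type hearts. The groups did not overlap, the log2 fold change was -0.44 ± 0.10 (SE, adjusted p = 0.0100), and its other probe sets gave -0.22 to -0.25. Emcn, the sialomucin endomucin of capillaries and veins, read 10.07, 9.92 and 10.21 in caAkt hearts and 10.60, 10.45 and 10.28 in wild-type hearts (log2 fold change -0.38 ± 0.10, adjusted p = 0.0231). Icam2, an adhesion molecule that resting endothelium carries, averaged 10.01 ± 0.12 in caAkt hearts and 10.37 ± 0.09 in wild-type hearts, a change of -0.36 ± 0.09 (adjusted p = 0.0113).

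Nos3, the endothelial nitric oxide synthase, averaged 9.44 ± 0.09 in caAkt hearts and 9.77 ± 0.17 in wild-type hearts (log2 fold change -0.33 ± 0.10, adjusted p = 0.0278). Robo4, a receptor that stabilises the vessel wall, changed by -0.28 ± 0.07 (adjusted p = 0.0202) and Rasip1, a Ras-binding protein needed for a vessel lumen, by -0.25 ± 0.08 (adjusted p = 0.0388). These last calls and that of Emcn were fragile. Emcn lost its call when replicate 1 or 2 of either genotype was left out (adjusted p up to 0.0904), and Nos3 when caAkt replicate 1 or 3 or wild-type replicate 2 or 3 was (up to 0.105). Robo4 lost it when wild-type replicate 2 or caAkt replicate 1 or 3 was left out (up to 0.0785), and Rasip1 was called in 1 of the 6 fits, that without wild-type replicate 1 (otherwise up to 0.121). The list's count of falls was 2 without wild-type replicate 2 or caAkt replicate 1, 3 without caAkt replicate 3 and 4 without wild-type replicate 3 or caAkt replicate 2.

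Several of the most used endothelial markers did not pass the test. Pecam1 read 9.998, 10.11 and 10.26 in caAkt hearts and 10.20, 10.19 and 10.36 in wild-type hearts, groups that overlap, with a log2 fold change of -0.13 ± 0.09 (adjusted p = 0.309). Cdh5 (-0.16 ± 0.08), the receptor kinase gene Tie1 (-0.24 ± 0.09), the junction protein gene Esam (-0.24 ± 0.09) and Egfl7 (-0.23 ± 0.08), which encodes a protein secreted by endothelium, had lower values on every caAkt array than on any wild-type array, at adjusted p from 0.0665 to 0.152. Leaving out wild-type replicate 1 brought Tie1 past the threshold (-0.31, adjusted p = 0.0343). For Egfl7 the other 3 probe sets gave -0.35 to -0.39 and were called in the fit of all probe sets, so its brightest probe set shows the smallest change. The lectin gene Clec14a (-0.13), the tight junction gene Cldn5 (-0.10), the complement-receptor-like Cd93 (0.05) and the sphingosine-phosphate receptor gene S1pr1 (0.15) had overlapping groups and standard errors of 0.07 to 0.13.

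Cd34, a sialomucin of capillary endothelium that fibroblasts and progenitor cells also carry, went against the others. It read 11.54, 11.73 and 11.88 in caAkt hearts and 11.34, 11.36 and 11.28 in wild-type hearts, without overlap, and differed by 0.39 ± 0.09 (adjusted p = 0.0110). Fibroblast markers moved in the same direction. Of 12 such genes 9 rose and 0 fell, and their mean log2 value was 12.33 to 12.54 on the caAkt arrays and 11.25 to 11.46 on the wild-type arrays. Their part in the value of Cd34 was not tested.

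The DNA just before the gene start was compared for members in the RefSeq promoter table (build GRCm38.p6), which matched 27 of the 44 genes with 35 windows of 300 bases each, 250 before and 50 after a start. The motifs searched on both strands were CCGGAA and CAGGAA, which ETS factors bind, ACAAT for Sox factors, TGGGAA for RBPJ, the Notch effector, and GGNNNTTCC, a loose form of the NF-kB site that was added after the values were seen and can overlap TGGGAA and the ETS motifs. CAGGAA stood in 14 of 35 member windows (40.0%) and in 30.6% of all 32851 windows, and CCGGAA in 1 (2.9%) and 14.9%. ACAAT was present in 25.7% of member windows and 31.0% of all windows, and TGGGAA in 28.6% and 25.6%. By gene, counting a match in any window of the gene, CAGGAA occurred in 5 of 10 members that fell, 3 of 7 that rose and 5 of 10 that were not called. The 250 bases before the start are shown for 3 shared genes that fell, because each holds the ETS motif CAGGAA on 1 strand or the other. They lie at chr3:137340828-137341077 (Emcn), chr9:37401722-37401971 (Robo4) and chr7:45627287-45627536 (Rasip1), all on the + strand, written 5′ to 3′ with every motif match in capitals.
Emcn: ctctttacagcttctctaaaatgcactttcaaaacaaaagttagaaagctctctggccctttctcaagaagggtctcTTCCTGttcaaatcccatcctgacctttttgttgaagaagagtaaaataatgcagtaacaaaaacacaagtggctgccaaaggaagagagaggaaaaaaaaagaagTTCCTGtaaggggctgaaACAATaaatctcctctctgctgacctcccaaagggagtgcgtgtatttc
Robo4: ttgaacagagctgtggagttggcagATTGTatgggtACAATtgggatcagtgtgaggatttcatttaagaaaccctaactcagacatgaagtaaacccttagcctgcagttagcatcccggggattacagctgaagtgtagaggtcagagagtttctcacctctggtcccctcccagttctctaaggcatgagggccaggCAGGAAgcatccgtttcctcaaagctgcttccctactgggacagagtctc
Rasip1: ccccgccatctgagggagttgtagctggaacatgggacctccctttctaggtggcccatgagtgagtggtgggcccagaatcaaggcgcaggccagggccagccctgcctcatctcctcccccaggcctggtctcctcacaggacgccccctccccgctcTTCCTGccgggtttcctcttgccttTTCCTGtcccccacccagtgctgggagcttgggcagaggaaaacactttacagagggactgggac
In these windows Emcn and Rasip1 carry CAGGAA on the opposite strand, as TTCCTG, in 2 places each, and Robo4 carries it once on the printed strand. A match describes the letters and does not show that a factor binds.

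Among the 6 transcription factors shared by endothelial cells, 2 fell (33.3%, beside 12.4% of all genes) and 0 rose. At their brightest probe sets over all 6 arrays, all 6 had negative log2 fold changes. Sox7 had the lowest log2 fold change of the 44 genes at their brightest probe sets over all 6 arrays. Without wild-type replicate 3, Aqp7 was lower, at -1.39 against -1.27 for Sox7, and at the second probe sets Aqp7 gave -1.91 and Sox7 -0.09. Sox7 read 9.33, 9.37 and 9.20 in caAkt hearts and 10.72, 10.42 and 10.18 in wild-type hearts, so every caAkt array lay below every wild-type array. It differed by -1.14 ± 0.13 on the log2 scale (SE, adjusted p = 0.000169) or 2.20-fold, and it was called in every fit without 1 array. The second probe set of Sox7, much dimmer (-0.09 ± 0.13), was not called. Erg, an ETS factor that keeps endothelium quiescent, read 8.34, 8.15 and 8.28 in caAkt hearts and 8.82, 8.72 and 8.74 in wild-type hearts, a change of -0.51 ± 0.08 (adjusted p = 0.000998). Its dimmer probe set gave -0.20 ± 0.12, not called.

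None of the 4 other factors passed the test. Sox18, which acts with Sox7 in vessel growth, changed by -0.19 ± 0.09 (adjusted p = 0.161; called without wild-type replicate 3, at -0.28 and adjusted p = 0.0329). Within each array, Sox7 minus Sox18 was -1.87, -1.91 and -2.15 in caAkt hearts and -0.86, -1.11 and -1.10 in wild-type hearts, without overlap and with a shift of -0.95 (exact permutation p = 0.1, two-sided, the smallest that 3 against 3 arrays allow, and 0.12 adjusted over 6 pairs chosen after their values were seen). For Sox7 minus Sox17 the shift was -0.93 with the same exact permutation p. Fli1, an ETS factor also found in blood cells, gave -0.15 ± 0.19 (adjusted p = 0.606), with wild-type arrays from 8.57 to 9.43, and its second probe set gave 0.21. Erg minus Fli1 shifted by -0.36, with overlapping groups (exact permutation p = 0.2). Ets1 (-0.11 ± 0.12) and Tal1 (-0.14 ± 0.09), a factor of blood and endothelial precursors, were not called. The probe sets of Ets1, like those of Fli1, were of mixed sign.

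**Figure D2:**
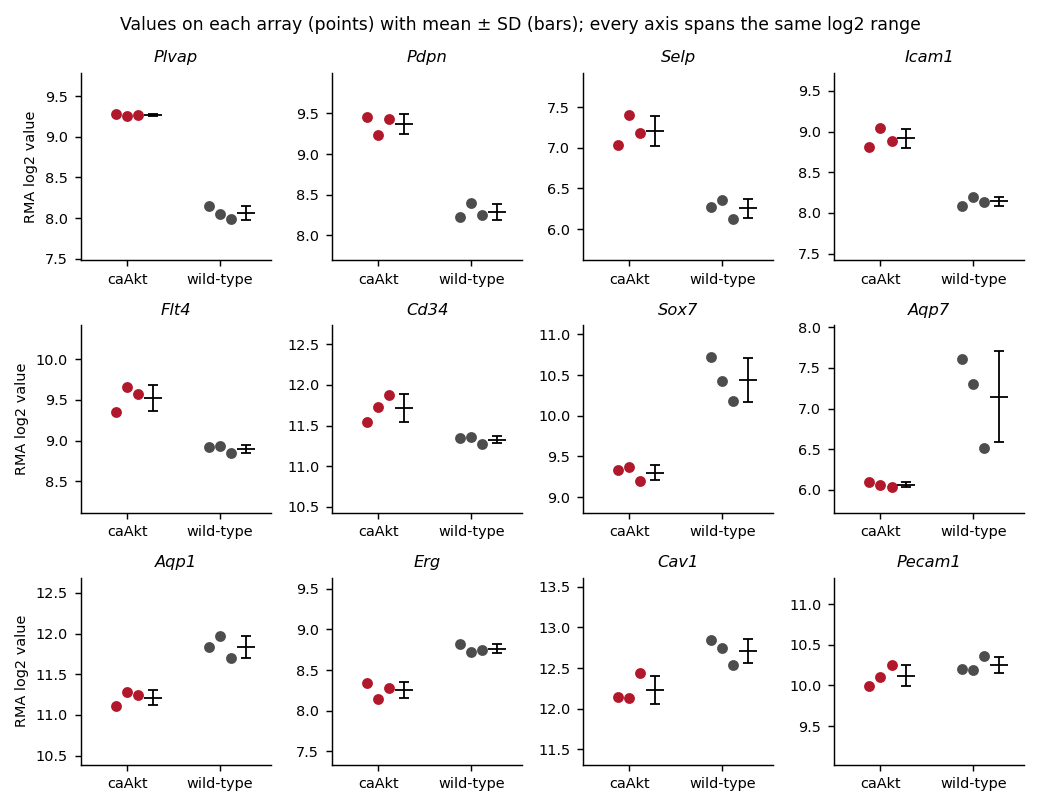
RMA log2 values (y axis) of 12 members on each of the 3 caAkt (red) and 3 wild-type (grey) arrays, with mean ± SD beside the points; every panel spans the same log2 range. Plvap to Cd34 lie higher in caAkt hearts without overlap, Sox7 to Cav1 lower without overlap, and Pecam1 overlaps; the spread of Aqp7 lies on the wild-type side.

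Of the 5 capillary genes 4 fell and 0 rose, with a median log2 fold change of -0.56, beside -0.21 for the 22 shared genes and -0.04 over all genes. Aqp1, the water channel of cardiac capillaries, read 11.11, 11.28 and 11.25 in caAkt hearts and 11.83, 11.97 and 11.69 in wild-type hearts. It changed by -0.62 ± 0.09 (adjusted p = 0.000784), and the groups lay apart by more than their spread. Cav1, the main coat protein of the caveolae that fill capillary endothelium, read 12.14, 12.13 and 12.43 in caAkt hearts and 12.84, 12.74 and 12.54 in wild-type hearts (-0.47 ± 0.11, adjusted p = 0.00968). Its partner Cav2 averaged 10.48 ± 0.19 in caAkt hearts and 11.04 ± 0.30 in wild-type hearts, a change of -0.56 ± 0.15 (adjusted p = 0.0217). Cav2 was called in 2 of the 6 fits without 1 array, those lacking wild-type replicate 3 or caAkt replicate 3 (in the rest, adjusted p up to 0.0909). Its second probe set, far dimmer, gave -0.14 and was not called.

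Aqp7, a channel for glycerol that capillaries and fat cells use, fell to 6.09, 6.06 and 6.04 in caAkt hearts, against 7.61, 7.30 and 6.52 in wild-type hearts. The log2 fold change was -1.08 ± 0.22 (adjusted p = 0.00618), -1.91 at the second probe set, and -1.39 to -0.85 without single arrays. The wild-type arrays differed more from each other (SD 0.56) than the caAkt arrays did (SD 0.03). Adipoq, a hormone gene confined to fat cells, read 5.36, 5.002 and 5.19 in caAkt hearts and 7.67, 6.49 and 6.58 in wild-type hearts. The change was -1.73 ± 0.27 (adjusted p = 0.00120). Of 9 mesothelial and adipocyte markers 0 rose and 5 fell (55.6%, beside 12.4% of all genes). That count was 1 to 4 without single arrays, at 1 without caAkt replicate 1, wild-type replicate 1 or wild-type replicate 2, at 2 without caAkt replicate 2 and at 3 without caAkt replicate 3. The falls over all arrays came from both kinds of marker, and among them Cidec read 4.16 to 4.62, near the level of the Y-linked genes. The part of fat cells in the fall of Aqp7 was not tested. Rgcc, a cell cycle regulator enriched in capillary endothelium, gave -0.33 ± 0.19 (adjusted p = 0.226) with one caAkt array at 8.86 and the other two at 9.42 and 9.74, overlapping the wild-type arrays at 9.68, 9.78 and 9.54.

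The 6 arterial genes all had negative log2 fold changes at their brightest probe sets, and 3 of them fell (median -0.29). Hey2, a repressor downstream of Notch that ventricular muscle cells also express, read 5.42, 5.30 and 5.34 in caAkt hearts and 5.96, 5.95 and 5.91 in wild-type hearts (-0.58 ± 0.07, adjusted p = 0.000202). Its relative Hey1 read 8.37, 8.43 and 8.41 in caAkt hearts and 8.78, 8.79 and 8.79 in wild-type hearts, a change of -0.39 ± 0.06 (adjusted p = 0.00165). In these genes the arrays of a group differed by 0.12 at most. Dll4, the Notch ligand of arterial and sprouting endothelium, averaged 8.11 ± 0.10 in caAkt hearts and 8.48 ± 0.18 in wild-type hearts (-0.37 ± 0.10, adjusted p = 0.0206). Dll4 lost its call when caAkt replicate 1 or 3 was left out (adjusted p up to 0.0800). The list held 2 falls in those fits and 4 without wild-type replicate 3, where Sox17, a factor of arterial identity, was called (-0.36, adjusted p = 0.0302; otherwise -0.21 ± 0.13, adjusted p = 0.274). The receptor genes themselves were not called, with Notch1 at -0.16 ± 0.10 and Notch4 at -0.11 ± 0.07. A dim probe set of Notch4 gave -0.28 and was called in the fit of all probe sets (adjusted p = 0.0424). The probe sets of Notch1 and those of Notch4 were of mixed sign.

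Plvap and the leukocyte adhesion genes rose: 5 of the 7 venous and adhesion genes were called higher and 0 lower, and the median log2 fold change was 0.35. Plvap, which forms the diaphragms of fenestrated and venous endothelium and is sparse in capillaries of a healthy heart, had the largest rise of the 44 genes. It read 9.28, 9.26 and 9.26 in caAkt hearts and 8.15, 8.04 and 7.99 in wild-type hearts, and differed by 1.20 ± 0.07 on the log2 scale (SE, adjusted p = 4.74e-06), or 2.30-fold. Plvap minus Pecam1 within each array was -0.72, -0.85 and -0.99 in caAkt hearts and -2.05, -2.14 and -2.37 in wild-type hearts, a shift of 1.33 without overlap (exact permutation p = 0.1, the smallest possible, and 0.12 adjusted over 6 pairs). The pair was chosen after its values were seen, so the lack of overlap is no independent support.

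Selp, the P-selectin on which leukocytes roll, read 7.04, 7.40 and 7.18 in caAkt hearts and 6.27, 6.36 and 6.13 in wild-type hearts (0.96 ± 0.10, adjusted p = 0.000151). Its other probe sets gave 0.55, called, and 0.35, not called. Icam1, the ligand of leukocyte integrins that inflammatory signals induce, read 8.81, 9.05 and 8.89 in caAkt hearts and 8.09, 8.20 and 8.14 in wild-type hearts, a change of 0.78 ± 0.08 (adjusted p = 0.000114). While Icam1 rose, the constitutive Icam2 fell, and Icam1 minus Icam2 shifted by 1.14 without overlap (exact permutation p = 0.1, the smallest possible, and 0.12 adjusted over 6 pairs). This pair too was chosen after its values were seen. Vcam1, a further integrin ligand that fibroblasts and muscle cells also express, changed by 0.35 ± 0.08 (adjusted p = 0.0125), with 0.18 and 0.03, not called, at its other probe sets, and its call was lost when wild-type replicate 2 was left out (adjusted p = 0.0539). Sele, the E-selectin of activated endothelium, rose by 0.23 ± 0.08 near the level of the Y-linked genes (adjusted p = 0.0489) and was called in 1 of the 6 fits without 1 array, that without caAkt replicate 3 (otherwise adjusted p up to 0.152). The number of rises in this list was 3 to 5 in those fits, and 3 without wild-type replicate 2.

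Vwf, the clotting factor stored in venous endothelium and platelets, gave 0.12 ± 0.15 (adjusted p = 0.593), and Nr2f2, the factor that sets venous identity, 0.07 ± 0.12 (adjusted p = 0.673), both with overlapping groups. Markers of macrophages moved in the same direction as the called adhesion genes. All 12 macrophage markers rose, with mean log2 values of 10.01 to 10.38 on the caAkt arrays and 8.64 to 8.82 on the wild-type arrays. Of 8 platelet and erythroid markers 0 rose and 2 fell (25%, beside 12.4% of all genes). The falls were those of the erythroid genes Alas2 (-1.04 ± 0.24) and Klf1 (-0.40 ± 0.07). The platelet genes Itga2b, Gp1bb, Gp9, Pf4 and Ppbp were not called. Of 9 lymphocyte markers 2 rose (22.2%, beside 16.1% of all genes) and 0 fell, with a median of -0.10. The rises were those of Ptprc (1.30 ± 0.18) and Il7r (1.09 ± 0.15). With these 2 included, the mean log2 values of the list were 6.83 to 6.98 on the caAkt arrays and 6.64 to 6.78 on the wild-type arrays. The part of these cells in the values of Icam1, Vcam1 and Selp was not tested.

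The windows before the starts of 3 adhesion genes that rose are shown because each holds the NF-kB-like motif GGNNNTTCC, which stood in 9 of 35 member windows (25.7%) and in 18.5% of all windows. By gene, it occurred in 4 of 7 members that rose, 1 of 10 that fell and 3 of 10 that were not called. They lie at chr9:21015690-21015939 (Icam1), chr1:164115014-164115263 (Selp) and chr1:164047984-164048233 (Sele) of GRCm38.p6 on the + strand, again with all motif matches in capitals.
Icam1: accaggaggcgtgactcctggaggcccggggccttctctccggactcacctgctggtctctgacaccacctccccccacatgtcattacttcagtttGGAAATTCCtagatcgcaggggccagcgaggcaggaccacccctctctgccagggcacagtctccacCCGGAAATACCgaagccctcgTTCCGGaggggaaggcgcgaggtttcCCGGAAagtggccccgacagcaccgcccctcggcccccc
Selp: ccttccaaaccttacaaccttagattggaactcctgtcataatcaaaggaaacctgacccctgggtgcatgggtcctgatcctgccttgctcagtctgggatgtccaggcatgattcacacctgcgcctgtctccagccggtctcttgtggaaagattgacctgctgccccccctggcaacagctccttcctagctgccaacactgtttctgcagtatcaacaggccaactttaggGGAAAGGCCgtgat
Sele: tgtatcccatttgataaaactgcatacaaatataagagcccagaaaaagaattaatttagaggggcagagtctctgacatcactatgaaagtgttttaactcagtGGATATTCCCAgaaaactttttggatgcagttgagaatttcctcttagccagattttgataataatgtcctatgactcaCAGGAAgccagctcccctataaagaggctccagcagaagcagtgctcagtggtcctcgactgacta
Icam1 also holds 3 matches to the ETS motif CCGGAA, of which 1 overlaps an NF-kB-like match, and in Sele the NF-kB-like match overlaps a TGGGAA match on the opposite strand. The counts are small and no comparison of them was tested, and the NF-kB-like motif was added after the values were seen. A gene counted if any of its windows held the motif, so counts by gene and shares of windows are unlike measures.

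Of the 4 lymphatic genes 3 rose and 0 fell, with a median log2 fold change of 0.74. Pdpn, the mucin podoplanin, which activated fibroblasts and some macrophages express as well, read 9.45, 9.23 and 9.43 in caAkt hearts and 8.23, 8.40 and 8.24 in wild-type hearts (1.08 ± 0.09, adjusted p = 2.49e-05). Flt4, which encodes the receptor VEGFR3 for the lymphatic growth factor VEGF-C, read 9.35, 9.66 and 9.57 in caAkt hearts and 8.92, 8.93 and 8.85 in wild-type hearts, a change of 0.63 ± 0.09 (adjusted p = 0.000732). The caAkt arrays lay above the wild-type arrays in both genes. A second probe set of Flt4 gave 0.41 (adjusted p = 0.0625 among all probe sets). Mmrn1, a matrix protein of lymphatic endothelium and platelets, read 6.92, 7.47 and 7.73 in caAkt hearts and 6.70, 6.70 and 6.16 in wild-type hearts, and rose by 0.85 ± 0.21 (adjusted p = 0.0145). Its call was lost when caAkt replicate 2 or 3 was left out (adjusted p up to 0.0625), and a probe set at 3.59 in caAkt and 3.52 in wild-type hearts, below the Y-linked genes, gave 0.08.

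Prox1, the master factor of lymphatic identity, which heart muscle cells express too, was not called. It read 7.94, 7.93 and 7.59 in caAkt hearts and 7.84, 7.84 and 8.22 in wild-type hearts, a difference of -0.15 ± 0.13 (adjusted p = 0.437), and the other probe sets gave -0.14 and -0.21. Flt4 minus Prox1 within each array, a pair chosen after its values were seen, shifted by 0.77 without overlap (exact permutation p = 0.1, the smallest possible, and 0.12 adjusted over 6 pairs). Fibroblast and macrophage markers rose beside Pdpn, and their part in its value was not tested.

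**Figure D3:**
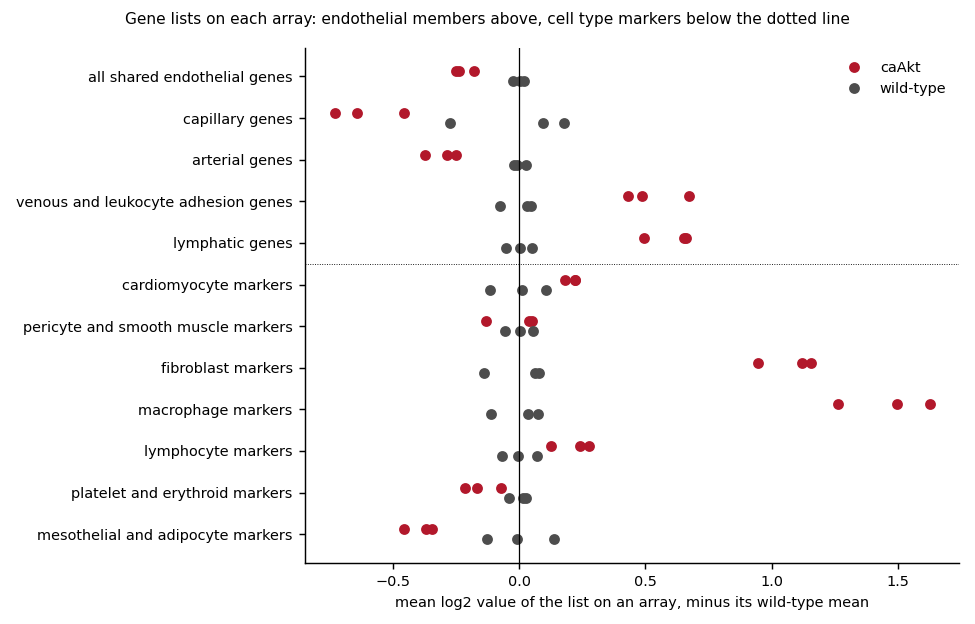
Mean log2 value of each gene list on each array minus its mean over the wild-type arrays (x axis), with caAkt arrays in red and wild-type arrays in grey. Shared, capillary and arterial members lie to the left in caAkt hearts, venous and lymphatic members to the right, and macrophage and fibroblast markers furthest to the right.

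Further genes of the same vessel types followed the members in part, against a background of 16.1% of all genes higher and 12.4% lower. Of 18 other shared endothelial genes 12 fell and 1 rose, and 9 to 11 of them fell when 1 array was left out. Their median log2 fold change was -0.28. The adhesion receptor gene Adgrf5 fell by 0.69 ± 0.07 on the log2 scale (adjusted p = 0.000130), Ushbp1 by 0.56 ± 0.08 and Cyyr1 by 0.56 ± 0.09. The rise was that of Ecscr (0.28 ± 0.07), chosen with its value known, whose call was lost when wild-type replicate 2 or caAkt replicate 1 was left out (adjusted p up to 0.0650). Among 10 measured capillary genes outside the 44, 3 fell and 0 rose, with a median of -0.16. Car4, the carbonic anhydrase on the capillary surface, fell by 1.29 ± 0.10 (2.44-fold, adjusted p = 1.73e-05) and Tcf15, a factor that favours fatty acid uptake by cardiac endothelium, by 0.99 ± 0.11. The lipase gene Mgll changed by -0.28 ± 0.08 and was called in 2 of the 6 fits, those without wild-type replicate 2 or caAkt replicate 3 (otherwise adjusted p up to 0.112). It was not called with plain probe sets only (-0.15).

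Of 12 further arterial genes 1 rose and 1 fell (8.3% each), with a median of 0.09, beside -0.29 for the 6 members. Across all genes these shares were 16.1% and 12.4%. Without caAkt replicate 1 the rises numbered 2. The rise was that of Fbln5 (1.11 ± 0.09), an elastic fibre gene that fibroblasts also express, and the fall that of Stmn2 (-0.35 ± 0.07). Of 6 further venous genes 1 rose, the proteoglycan gene Bgn (1.60 ± 0.10), which fibroblasts make in quantity, and 0 fell, with a median of -0.11, beside 0.35 for the 7 members. Of 7 measured lymphatic genes outside the 44, 4 rose and 2 fell over all arrays and in each fit without 1 array, with a median of 0.55. Fxyd6 (1.08 ± 0.12), Reln (0.68 ± 0.13), Itga9 (0.62 ± 0.09) and the factor gene Foxc2 (0.55 ± 0.12) rose, and Nts (-0.33 ± 0.07) and Gata2 (-0.36 ± 0.08) fell. Lyve1, a receptor of lymphatic endothelium and resident macrophages, gave -0.46 ± 0.25 (adjusted p = 0.202). Foxc2, Gata2 and Lyve1 were chosen with their values known.

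Endocardium, the lining of the chambers, can add to ventricular RNA, and 3 of its 6 listed genes rose and 1 fell. Across all genes, 16.1% rose and 12.4% fell, which holds as background for the lists below too. The natriuretic peptide receptor gene Npr3 rose by 1.28 ± 0.13, Tmem108 by 0.52 ± 0.09 and Cgnl1 by 0.39 ± 0.07, while Plagl1 changed by -0.64 ± 0.07. With the mean of all probe sets Tmem108 (0.18) and Cgnl1 (0.08) were not called, nor was Plagl1 with plain probe sets (-0.08). Pericyte and smooth muscle markers, which wrap the vessels, were mixed, with 3 of 12 higher and 2 lower (median 0.13; 5 higher without caAkt replicate 1). Of 15 cardiomyocyte markers 3 rose and 5 fell (median -0.04), with mean log2 values of 14.61 to 14.65 on the caAkt arrays and 14.31 to 14.53 on the wild-type arrays. The rises were those of the stress genes Nppa (2.42 ± 0.12), Nppb (1.16 ± 0.16) and Myh7 (1.34 ± 0.27; named with its value known), and the other 12 markers lay between -0.41 and 0.19.

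**Figure D4:**
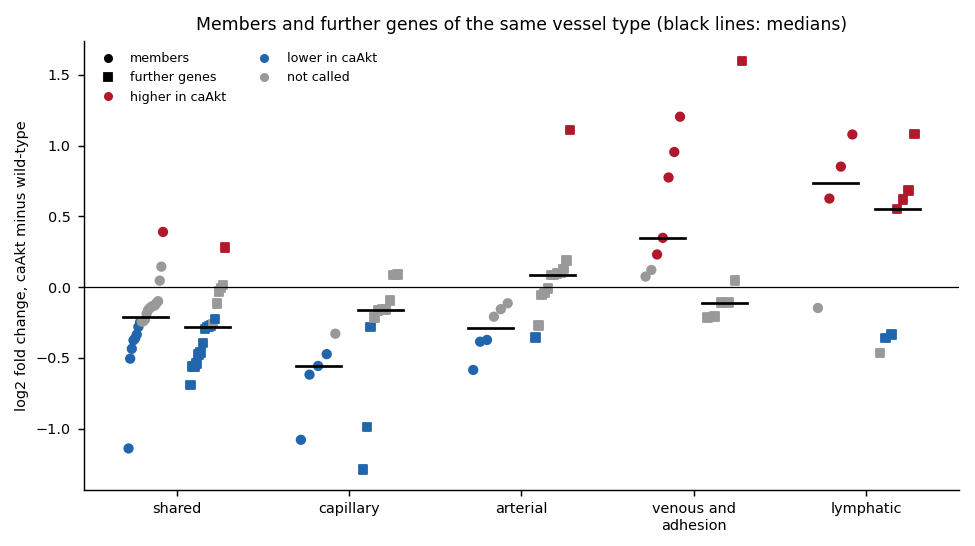
Log2 fold change (caAkt minus wild-type, y axis) of members (circles) and of further genes of the same vessel type (squares), with the median of each set as a black line. The medians of members and further genes lie on the same side of 0 for shared, capillary and lymphatic genes and on opposite sides for arterial and venous genes.

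Probe sets of 1 gene gave a further view of the same arrays. Of the 44 genes, 22 had several probe sets, and in 16 of these every probe set had the same sign. The 10 called members with several probe sets were all among them. The 6 genes of mixed sign were Cd93, Ets1, Fli1, Notch1, Notch4 and Nr2f2, none of which was called at its brightest probe set. Sizes differed more than signs: in Sox7, Cav2, Erg, Mmrn1 and Vcam1 the dimmer probe sets gave much smaller changes. The position of the probe sets along the transcripts was not analysed here.

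**Figure D5:**
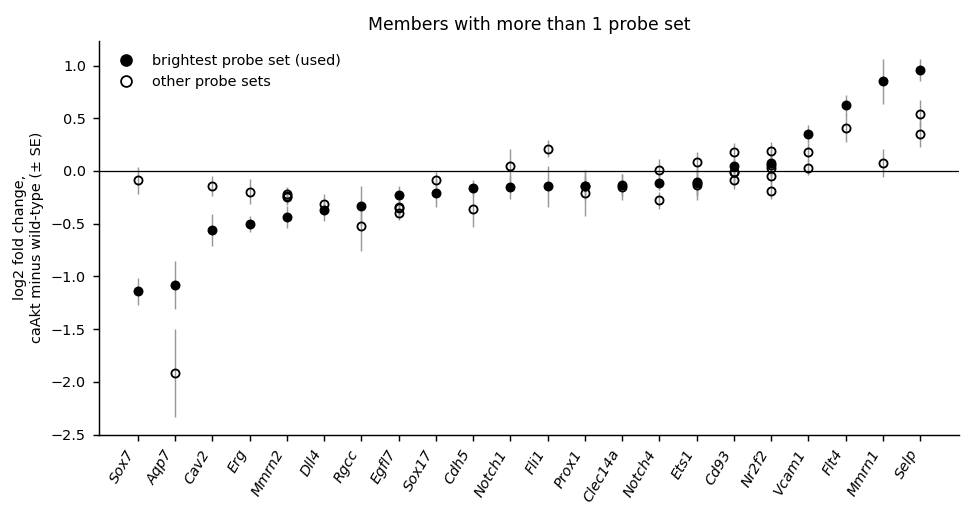
Log2 fold change (caAkt minus wild-type, y axis, ± moderated SE) of every probe set of the 22 members with more than 1, ordered by the brightest probe set (filled), with the other probe sets as open circles. Aqp7 and Egfl7 fall further at their other probe sets, whereas Sox7 and Mmrn1 lie near 0 at theirs.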

How the data were processed

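Expression was measured on short-oligonucleotide arrays of ventricular RNA from 3 caAkt and 3 wild-type samples. Per the labels' protocols, RNA was extracted with Trizol, purified on columns and labelled with biotin. The deposited log2 values, 1 for each probe set on each array, were made by the authors with RMA in the package affy, per the submitters' processing notes, with no version given. Quantile normalization hides a change shared by most genes. The table has no detection calls, and the number of arrays limits the precision.

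Of 45101 probe sets, 34945 had 1 symbol in the platform annotation, 932 several, 9160 none, and 64 were controls; 34741 were found in the RefSeq gene table. The test of genotype used lmFit and eBayes of limma 3.58.1 under R 4.3.3, with p-values adjusted by Benjamini-Hochberg over 18193 genes and 4 residual degrees of freedom. The steps were tested on simulated data. There, of 18193 genes, 67 were changed by 0.5 on the log2 scale, 67 by 1 and 66 by 2. Of these changes 53.7%, 95.5% and 100% were recovered. Of 171 calls, 5 were false. In the real data 28.5% of genes were called, a far larger share, on which the adjusted p threshold depends. The simulated rates therefore do not give the share of real changes recovered here. Members with changes under 0.5 that did not pass the test may still have been missed. Alternatives were eBayes with trend and robust settings, other choices of probe set, a filter on dim genes, renewed scaling, the replicate number as a block, and leaving out each array. All 44 members are named; of other lists, up to 4 genes with the smallest p, except that 1 such gene is not reported here and that genes marked as chosen or named with their values known are added. Members, lists and motifs were chosen with earlier results of these data known.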

Additional observations from a re-analysis of the deposited data

How the results depend on the processing

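The 44 genes gave 9 rises and 15 falls; the alternatives that keep all 6 arrays gave 8 or 9 rises and 15 to 17 falls, except plain probe sets, which tested 38 of the genes and gave 8 rises and 12 falls (the filter on dim genes tested 43), and leaving out 1 array gave 7 or 8 rises and 9 to 15 falls. With a renewed quantile normalization Tie1 (-0.31) and Egfl7 (-0.30) were called lower too, and Sele was lost with plain probe sets and with the replicate block. The median log2 fold change of shared genes was -0.26 after renewed quantile normalization. That of arterial genes was -0.24 with the mean of all probe sets, -0.37 with plain probe sets and -0.35 after quantile normalization. That of venous and adhesion genes was 0.23 with the mean of probe sets and 0.56 without dim genes, which removes Sele, and that of lymphatic genes 0.49 with the mean of probe sets. Without single arrays these medians spanned -0.24 to -0.18 (shared), -0.69 to -0.42 (capillary), -0.33 to -0.23 (arterial), 0.28 to 0.40 (venous and adhesion) and 0.64 to 0.88 (lymphatic). Centring arrays on their medians moved the median of all genes to -0.021. Akt1 was at -0.29 with plain probe sets, which leave out its brightest one, and Fli1 at 0.032 with the mean of probe sets. Signs of uncalled genes turned without single arrays for Fli1 (-0.37 to 0.057), Nr2f2 (-0.032 to 0.19), Vwf (-0.020 to 0.24), Cldn5 (-0.20 to 0.027) and Ets1 (-0.18 to 0.016). The causes were not tested. Same-numbered arrays of the 2 genotypes deviated together at correlations of 0.265, 0.031 and -0.121, so the numbers were not read as pairs; with the replicate block 8 members rose and 15 fell.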
